A study of Oryza sativa with 6 samples.

Results

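The genes described here are the 200 rice genes whose level in nodal roots most exceeded that in S-type lateral roots, both under salt and under control. They were chosen by their measured levels in the nodal and S-type libraries. Members had at least 200 scaled fragments in both nodal libraries, and a scaled fragment is a sequenced fragment times 1 factor per library. They were ranked by the smaller of their log2 ratios of nodal over S-type under salt and under control, after adding 1 to each value, with 6 genes left out by name. Of 37942 gene models, 7232 met the minimum and were not left out (the eligible genes), and the first 200 of them are the members. The L-type libraries played no part in the choice, and the ratio of salt to control was not read directly. The nodal and S-type levels below are therefore descriptions of the choice. Salt ratios in nodal and S-type roots, and comparisons of L-type with these roots, are built from values that the rule read. Only the L-type levels and the L-type salt ratios use none of those values.

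The study sequenced strand-specific messenger RNA libraries from 3 root types of rice of the genotype labelled Mulai. L-type laterals, nodal roots and S-type laterals were each taken after 7 days in 50 mM NaCl and under control conditions, and all 6 groups share the genotype. There are no replicates, with 1 library a group, and every ratio between a pair of libraries compares those libraries only. Plant age, plants per library, the hour of sampling and any shared plants between root types are not stated in the labels.

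Nodal roots, also called crown roots, arise from the stem of a grass and carry most of the adult root system. They have a broad stele and cortex. S-type laterals are short, thin and unbranched, and L-type laterals are longer, thicker and able to branch. Growing root cells loosen and rebuild a primary wall of cellulose and matrix polysaccharides, and vessels and fibres later add a secondary wall. In a whole root, fewer cells of a type and less RNA per cell cannot be told apart, and this holds for every level given here.

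Between 5620282 and 8711710 fragments fell in genes per library. Members held 1.08% of them in salt L-type and 0.864% in control L-type roots, 2.0% in salt and 2.50% in control nodal roots, and 0.197% in salt and 0.195% in control S-type roots. The member share was thus larger under salt in the L-type pair and smaller under salt in the nodal pair. Markers of dividing cells, 3 of 3 found (CYCB1;1, CYCB2;2 and CDKB2;1), summed to 1868 and 1912 scaled fragments in salt and control L-type roots, 1698 and 1739 in nodal roots and 732 and 643 in S-type roots. Markers of green tissue, 3 of 3 found (CAB1R, CAB2R and RBCS), summed to 56.1 and 199 in salt and control L-type roots, 65.5 and 233 in nodal roots and 26.1 and 65.6 in S-type roots. Against the order of these sums, CAB1R was higher in L-type than in nodal roots, with 54.3 and 192 against 30.7 and 127 under salt and control. RBCS was higher under salt in nodal roots, with 17.4 against 7.82. RBCS was at 0 in both S-type libraries, and CAB2R was at 0 in the salt L-type library. The root hair marker EXPA17, 1 of 2 found, had 12.9 and 12.5 in salt and control L-type roots, 131 and 97.3 in nodal roots and 2.70 and 0 in S-type roots. All 5 endodermis genes were found (CASP1, Lsi1, Lsi2, ABCG5 and SCR1), and they summed to 23573 and 17495 in salt and control L-type roots, 10285 and 5864 in nodal roots and 46618 and 43233 in S-type roots. Lsi1 and Lsi2 made up most of each sum, with 22198 and 23762 in salt S-type roots. ABCG5 went the other way, with 112 and 205 in salt and control nodal roots and 27.0 and 7.71 in S-type roots. CASP1 was highest in L-type roots, with 544 and 594, against 247 and 237 in nodal roots and 506 and 481 in S-type roots. The part of all these markers in the results below was not tested.

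By the rule, the log2 ratio of nodal over S-type roots had a median of 3.02 under salt and 3.33 under control, and the ranking score ran from 8.85 to 2.22. The last 5 members were Os03g0329700 at 2.24, Os02g0110600 at 2.23 and Os02g0699500, Os03g0861100 and Os03g0295600 at 2.22 each. The first 5 genes outside were Os07g0191200 at 2.22, Os02g0787000 at 2.2 and Os06g0156600, Os01g0580200 and Os10g0555900 at 2.19 each. The border is thus a gradual one. The S-type library held at most 3 fragments of 16 members under salt and 19 under control, and 0 fragments of 5 and 6 members.

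L-type roots held the members at levels between those of the other root types. The L-type value lay below the nodal and above the S-type value for 192 of 200 members under salt and 190 under control. It exceeded the nodal value for 7 members under salt and 6 under control, and was at or below the S-type value for 1 and 4. The median L-type level was 49.0% of the nodal level under salt and 32.3% under control. Over the members the median log2 ratio of L-type to S-type was 2.08 under salt and 1.80 under control, against 0.01 and 0.02 over the eligible genes. Of the 182 members with at least 50 scaled fragments in the higher of the L-type and S-type libraries under salt, 177 were at least 2-fold higher in L-type roots, where 11.5% of all genes were. Under control the count was 160 of 176, where 12.9% of all genes were. At least 2-fold below nodal roots stood 102 of 200 members under salt, against 3.06% of all genes, and 159 under control, against 8.04% of all genes. Members had to be high in nodal and low in S-type roots, so these shares describe the choice as much as the L-type libraries, and nothing is read from them.

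In the salt libraries the L-type level was closer to the nodal one than in the control libraries. The L-type percentage of the nodal level was larger under salt for 176 of 200 members (88%), against 3906 of 7232 eligible genes (54.0%). On the log2 scale, 162 members were nearer to nodal than to S-type roots under salt and 105 under control. The L-type and nodal pairs often differed in opposite directions: 104 members (52%) were higher under salt in L-type and lower under salt in nodal roots, against 22.4% of the eligible genes. Another 44 members were higher in both, 48 lower in both, and 4 lower in L-type and higher in nodal roots. With 1 library a group, none of these counts has a replicate check, and their nodal and S-type values were also read by the rule.

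**Figure D1:**
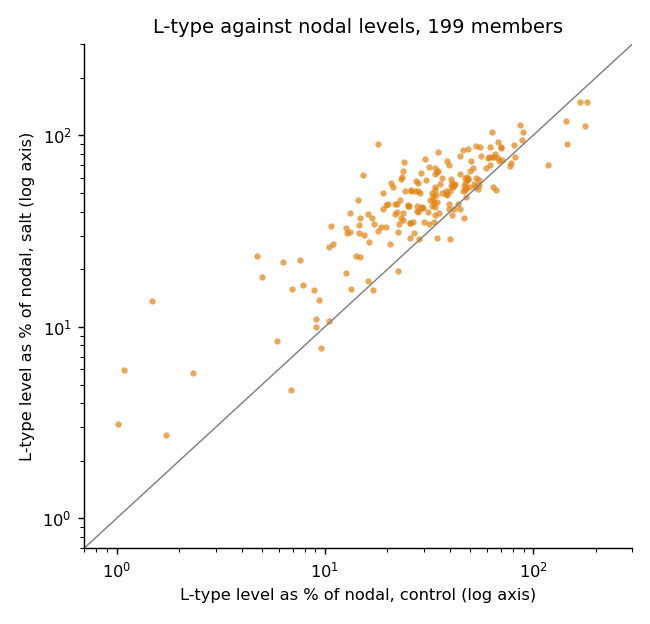
L-type level of each member as a percentage of its nodal level, under salt (y axis) and under control (x axis), both on log axes with the line of equality. Each point is 1 of the 199 members with a fragment in the control L-type library; most points lie above the line, and the medians over all 200 members are 49.0% under salt and 32.3% under control.

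The salt ratios of the members differed by root type. The log2 ratio of salt to control had a median of 0.24 over the 200 members in L-type, -0.28 in nodal and 0.04 in S-type roots. The eligible genes with at least 50 scaled fragments in the higher library had medians of -0.00, -0.03 and 0.01 in the same order of root types. In L-type roots 184 members reached that minimum, and 138 of them were above 0 (75%). At least 2-fold higher under salt in L-type roots were 14 members (7.61%), against 1.64% of all genes, and 0 were at least 2-fold lower, against 4.22% of all genes. Without the minimum the counts were 16 and 1 of 200. In nodal roots 12 members (6%) were at least 2-fold lower, against 1.75% of all genes, and 1 (0.5%) was at least 2-fold higher, against 1.27%. In S-type roots 92 members reached the minimum, of which 3 were at least 2-fold higher, against 1.63% of all genes, and 1 lower, against 1.8%. Members were thus more often 2-fold higher than genes at large in the L-type pair and more often 2-fold lower in the nodal pair. The nodal and S-type ratios, here and below, are built from values that the rule read, so their shares are descriptions only.

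For part of the members the ratios exceeded counting error. The exact binomial 95% interval of the ratio, which covers counting error only, lay above 0 in L-type roots for 84 of 184 members, against 19.3% of all genes, and below 0 for 21, against 22.7%. In nodal roots it lay above 0 for 26 of 200 members, against 16.4% of all genes, and below 0 for 116, against 22.6%. Members had at least 200 scaled fragments in both nodal libraries, and all genes here at least 50 in the higher library. More fragments give narrower intervals, so the nodal shares are set at unlike minimums. The share over the eligible genes was not counted. In S-type roots it lay above 0 for 12 of 92 members, against 18% of all genes, and below 0 for 19, against 21.5%.

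**Figure D2:**
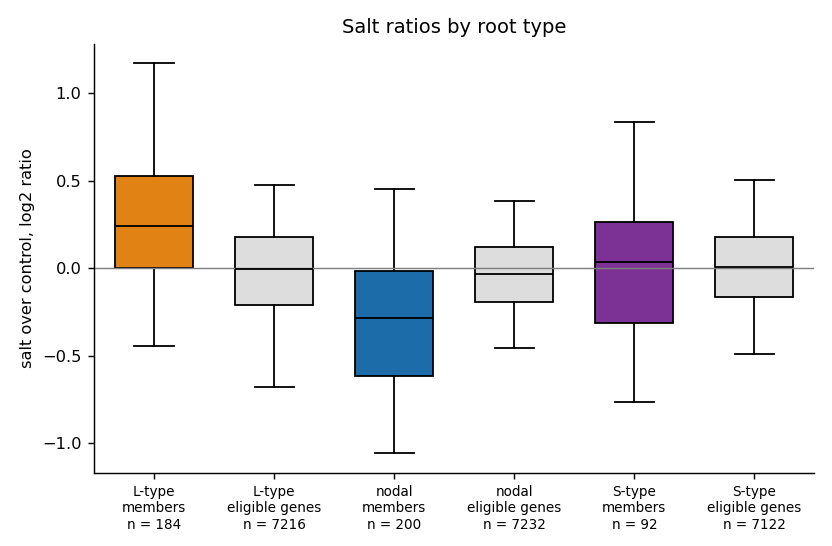
Log2 ratio of salt to control in L-type, nodal and S-type roots for members (coloured) and for the eligible genes (grey), each with at least 50 scaled fragments in the higher library of the pair. Boxes give the quartiles and the median and whiskers the 5th and 95th percentiles over genes; the L-type box of the members stands above that of the eligible genes, with a median of 0.24, and the nodal box stands below, with a median of -0.28.

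Set against each other, the member ratios had a median difference of 0.50 for L-type minus nodal roots (177 of 200 above 0), against 0.03 over the eligible genes. The median difference was 0.26 for L-type minus S-type roots (136 above 0), against -0.00 over the eligible genes. For S-type minus nodal roots it was 0.32 (142 above 0), against 0.04. Each pair of these differences shares the libraries of a root type, so they are not separate observations. None could be tested with 1 library a group, and their nodal and S-type values were also read by the rule. Across the 200 members, which are not independent replicates, the ratios in L-type and nodal roots had a Pearson correlation of 0.31 and a Spearman correlation of 0.31, against 0.24 and 0.25 across the eligible genes. The relation was weak in both sets.

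**Figure D3:**
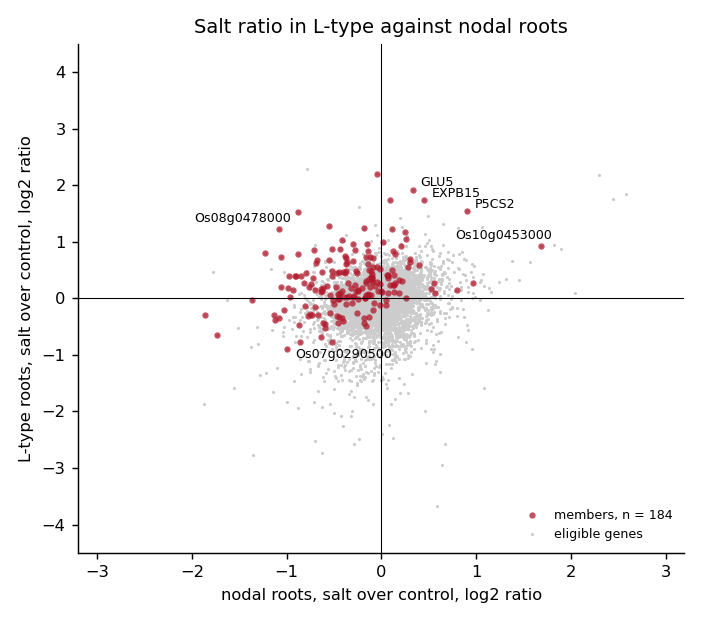
Log2 ratio of salt to control in L-type roots (y axis) against nodal roots (x axis) for the 184 members with at least 50 scaled fragments in an L-type library (red) over the eligible genes (grey). The members spread to the upper left of the grey cloud; 104 of all 200 members are higher under salt in L-type and lower under salt in nodal roots.

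Tested across the root types, no member passed the threshold for salt. The test was limma with root type as a term, on log2 of the scaled value plus 1. With 2 residual degrees of freedom, it weighs the mean salt effect against its variation over the root types, not against replicates. Of 198 members tested, 0 passed a Benjamini-Hochberg adjusted p of 0.05 in either direction, where 0.0653% of all 19900 genes tested were called higher and 0.0553% lower. At an unadjusted p under 0.05 there were 37 members (18.7%), 15 higher and 22 lower, against 10.5% of all genes. The fit reads the nodal and S-type values that the rule also read, so this share is a description only. The edgeR quasi-likelihood test on recovered fragments gave 43 members unadjusted and 0 adjusted. Over all 20136 genes it tested, 28 passed when adjusted, and the unadjusted share was not counted. DESeq2 called 2 of 200 members, Os10g0453000 and P5CS2, both higher, where it called 174 of all 28738 genes fitted. Nothing is read from these 2 calls as a trait of the members. The member with the smallest limma adjusted p was Os10g0453000 (chromosome 10, 16518756 to 16519644), with a log2 change of 1.18 (SE 0.18, adjusted p = 0.149). It held 727 and 381 scaled fragments in salt and control L-type roots, 1040 and 323 in nodal roots and 122 and 65.6 in S-type roots. All 3 root types were higher under salt for this gene, and it alone among the members was at least 2-fold higher in nodal roots.

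The members can be read by their known roles, as far as names go. The files pair no identifier with a name, and 32 members carry a symbol that was checked by position against a RefSeq gene table, 30 of them recalled after the members' values were seen. The plot of levels shows 31 of these. Some share their locus with another gene model, so that fragments could be split and levels are uncertain. Among them are GLU5, GLU6, BGLU28, BGLU30 and SPL12, with 2 models each, and P5CS2, with 3.

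**Figure D4:**
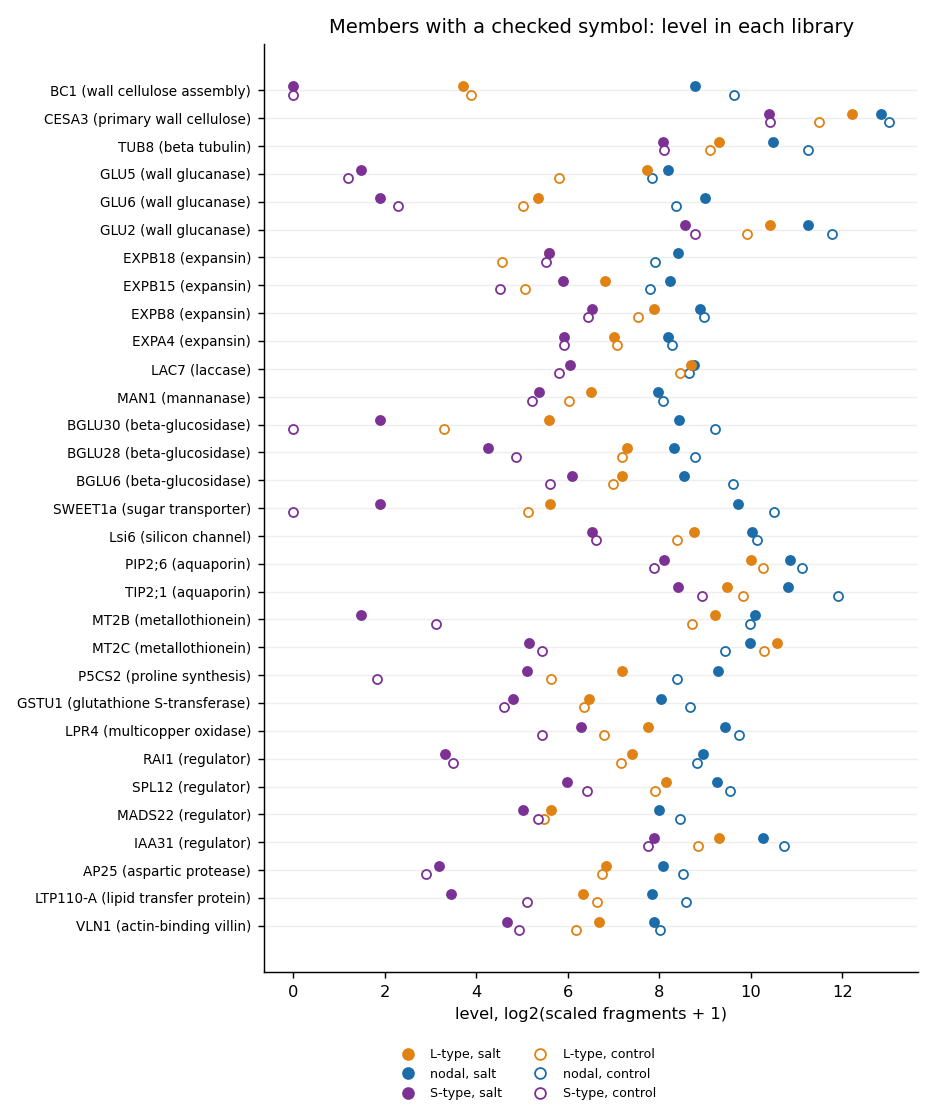
Level of 31 members with a checked symbol in each of the 6 libraries, as log2 of scaled fragments plus 1, ordered by known role. Filled points are salt and open points control libraries; L-type points (orange) lie mostly between nodal (blue) and S-type points (purple), except for MT2C, above nodal roots in both conditions, and EXPB18, below S-type roots in the control library.

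Several members build or loosen the primary wall. CESA3 (Os07g0424400, chromosome 7, 13741533 to 13747205), a cellulose synthase subunit of the primary wall, held 4769 and 2873 scaled fragments in salt and control L-type roots. Nodal roots held 7360 and 8258 and S-type roots 1353 and 1359. Its log2 salt ratio was 0.73 (counting interval 0.66 to 0.80) in L-type, -0.17 (-0.21 to -0.12) in nodal and -0.01 in S-type roots, so that the L-type pair differed most. The limma log2 change was 0.19 (SE 0.19, adjusted p = 0.740). TUB8 (Os03g0661300, chromosome 3, 25942767 to 25946686), a beta tubulin of the microtubules that guide cellulose deposition, held 629 and 546 in salt and control L-type roots, 1437 and 2449 in nodal roots and 270 and 274 in S-type roots. Here the nodal pair differed most, with a ratio of -0.77 against 0.20 in L-type and -0.02 in S-type roots.

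Endoglucanases trim glucan chains of the wall. GLU5 (Os01g0220100, chromosome 1, 6564697 to 6568289) had one of the largest L-type ratios. It held 210 and 55.1 scaled fragments in salt and control L-type roots, 289 and 229 in nodal roots and 1.80 and 1.29 in S-type roots. Its L-type ratio was 1.91 (1.46 to 2.43) and its nodal ratio 0.33 (0.10 to 0.57), and its L-type level was 72.5% of the nodal level under salt and 24.0% under control. The S-type libraries held 2 fragments and 1 fragment, too few for a ratio. GLU6 (Os04g0674800) stayed low in L-type roots, with 39.5 and 31.3 in salt and control L-type roots, against 509 and 328 in nodal roots and 2.70 and 3.86 in S-type roots. GLU2 (Os03g0736300) held 1361 and 970 in salt and control L-type roots, 2421 and 3477 in nodal roots and 375.4 and 440 in S-type roots. The ratio of GLU2 was 0.49 in L-type and -0.52 in nodal roots, and that of GLU6 was 0.33 and 0.64, so the 3 glucanases had no common pattern in nodal roots.

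Expansins loosen the wall of growing cells, and 4 are members. EXPB15 (Os04g0552000, chromosome 4, 27645599 to 27647490) held 111 and 32.6 scaled fragments in salt and control L-type roots, 301 and 220 in nodal roots and 58.5 and 21.9 in S-type roots. All 3 pairs were higher under salt, with ratios of 1.74 (1.15 to 2.44) in L-type, 0.45 in nodal and 1.38 in S-type roots, and a limma log2 change of 1.20 (SE 0.27, adjusted p = 0.284). EXPB18 (Os05g0246300) had the lowest control L-type position of all members, with 46.9 and 22.6 in salt and control L-type roots, 339 and 240 in nodal roots and 46.8 and 45.0 in S-type roots. Its control L-type value lay below the S-type one. EXPB8 (Os03g0102500) and EXPA4 (Os05g0477600) had L-type ratios of 0.36 and -0.08 and nodal ratios of -0.09 and -0.08.

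Other wall enzymes ranged widely in their L-type ratio. BGLU30 (Os09g0491100), of the beta-glucosidases, which split sugars from glycosides, held 46.9 and 8.77 scaled fragments in salt and control L-type roots, 344 and 593 in nodal roots and 2.70 and 0 in S-type roots. Its L-type ratio of 2.29 (1.27 to 3.80) was the highest of the 200 members, but neither library reached 50 scaled fragments, so it is not among the 14. BGLU28 (Os08g0509400) and BGLU6 (Os03g0212800) had L-type ratios of 0.10 and 0.20 and nodal ratios of -0.44 and -1.06. In the authors' length-scaled values (FPKM), BGLU28 was instead lower under salt in L-type roots, with 12.5 against 37.4, so its L-type ratio is uncertain. MAN1 (Os01g0663300), an enzyme that cuts mannan, had 0.49 in L-type and -0.11 in nodal roots. LAC7 (Os01g0850700), of the laccases, copper enzymes that oxidise phenolics, held 412 and 350 in salt and control L-type roots, against 435 and 397 in nodal roots and 64.8 and 55.3 in S-type roots, so its L-type level was 94.8% and 88.0% of the nodal one.

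Of the secondary wall list, 4 of 11 names passed the check, and 1 of these 4 is a member. List genes whose names did not pass were not looked up among the members, here or below. BC1 (Os03g0416200, chromosome 3, 17260407 to 17266217), a COBRA-like protein needed for cellulose assembly in mechanical tissue, held 440 and 796 scaled fragments in salt and control nodal roots and 0 in both S-type libraries. Nodal roots were thus at least 163-fold higher under salt and at least 206-fold higher under control, taking 3 fragments per S-type library as the limit. L-type roots held 11.96 and 13.8 under salt and control, which was 2.72% and 1.73% of the nodal level. The locus is shared by 4 gene models and the table could split its fragments, so its level is uncertain. The other 3 genes are the secondary wall cellulose synthases CESA4, CESA7 and CESA9, which the rule left out by name. Their ratios were 0.55, 0.58 and 0.81 in L-type and -0.35, -0.55 and -0.42 in nodal roots, and 0 of the 4 passed the limma test. Of the lignin list, 5 of 17 names passed the check. Of these 5, 0 are members and 0 passed the limma test. Their median ratio was -0.04 in L-type, -0.48 in nodal and -0.60 in S-type roots.

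Transport genes among the members differed in how far L-type roots followed nodal roots. SWEET1a (Os01g0881300, chromosome 1, 38254049 to 38257696), of the SWEET sugar transporters, held 47.8 and 33.8 scaled fragments in salt and control L-type roots, 837 and 1446 in nodal roots and 2.70 and 0 in S-type roots. Its L-type level was 5.72% of the nodal one under salt and 2.34% under control. Lsi6 (Os06g0228200, chromosome 6, 6648387 to 6653002), a channel for silicic acid, held 431 and 331 in salt and control L-type roots, 1035 and 1115 in nodal roots and 90.9 and 96.4 in S-type roots. Lsi6 lay a little below the median member, with 41.7% and 29.7% of the nodal level.

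A pair of water channels was lower under salt in both the L-type and the nodal libraries. TIP2;1 (Os02g0658100, chromosome 2, 26608375 to 26609819), a channel of the vacuole membrane, held 712 and 907 scaled fragments in salt and control L-type roots, 1809 and 3840 in nodal roots and 340 and 487 in S-type roots. The ratios were -0.35 (-0.50 to -0.20) in L-type, -1.09 (-1.16 to -1.01) in nodal and -0.52 in S-type roots, with a limma log2 change of -0.64 (SE 0.16, adjusted p = 0.328). PIP2;6 (Os04g0233400), of the plasma membrane, held 1025 and 1220 in salt and control L-type roots, 1862 and 2228 in nodal roots and 275 and 234 in S-type roots, with ratios of -0.25, -0.26 and 0.23. The list of TIP aquaporins had 3 of 3 names checked, with TIP2;1 a member and TIP2;2 left out by the rule, and 0 passed the limma test. Its median ratio was -0.35 in L-type and -0.85 in nodal roots.

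Metallothioneins bind metals through cysteines, and 2 members belong to this family. MT2C (Os05g0111300, chromosome 5, 605868 to 606764) held 1510 and 1255 scaled fragments in salt and control L-type roots, 1013 and 691 in nodal roots and 34.2 and 42.4 in S-type roots. It thus exceeded nodal roots in both conditions, at 149% and 182%. MT2B (Os01g0974200, chromosome 1, 43047164 to 43047861) held 594 and 417 in salt and control L-type roots, 1084 and 1005 in nodal roots and 1.80 and 7.71 in S-type roots. MT2B had 54.8% and 41.5% of the nodal level, above the median member. The L-type ratios were 0.27 for MT2C and 0.51 for MT2B, and the nodal ratios 0.55 and 0.11.

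P5CS2 (Os01g0848200, chromosome 1, 36430978 to 36442944), an enzyme of the synthesis of proline, a solute that plants gather under salt, was higher under salt in every pair. It held 144 and 48.9 scaled fragments in salt and control L-type roots, 623 and 333 in nodal roots and 33.3 and 2.57 in S-type roots. Its ratio was 1.54 (1.05 to 2.11) in L-type and 0.90 (0.73 to 1.09) in nodal roots, and its control S-type library held 2 fragments. The limma log2 change was 1.91 (SE 0.43, adjusted p = 0.296). Without the S-type pair the log2 change was 1.22, and edgeR gave 1.38. DESeq2 called it, with 1.62. GSTU1 (Os03g0785900), of the glutathione transferases that conjugate reactive compounds, had 0.11 in L-type and -0.64 in nodal roots. LPR4 (Os01g0126900), a multicopper oxidase, had 0.96 (0.61 to 1.34) in L-type and -0.30 in nodal roots.

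Among the regulators, IAA31, SPL12 and RAI1 had L-type levels between 27.0% and 51.4% of nodal ones, and MADS22 had 19.2% under salt and 12.6% under control. IAA31 (Os12g0601400), of the repressors of auxin response, held 630 and 459 scaled fragments in salt and control L-type roots, 1227 and 1696 in nodal roots and 234 and 215 in S-type roots, with ratios of 0.46, -0.47 and 0.12. SPL12 (Os06g0703500), of the SBP transcription factors, had 46.0% and 32.0% of the nodal level under salt and control, and RAI1 (Os03g0135700), a bHLH factor of rice immunity, had 34.3% and 31.6%. MADS22 (Os02g0761000), a MADS-box factor, held 48.7 and 43.8 in salt and control L-type roots, 254 and 348 in nodal roots and 31.5 and 39.9 in S-type roots, so that its L-type level was near the S-type one. AP25 (Os03g0186900), an aspartic protease, LTP110-A (Os11g0115100), a lipid transfer protein, and VLN1 (Os05g0153000), which bundles actin, had L-type ratios of 0.07, -0.29 and 0.50 and nodal ratios of -0.45, -0.74 and -0.13. LTP110-A has a near-identical copy on chromosome 12, so its level is uncertain.

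The members with the highest score include several without a name. Os05g0135500 (chromosome 5, 2080597 to 2082747), first in rank, held 52.4 and 17.5 scaled fragments in salt and control L-type roots, 878 and 1617 in nodal roots and 0.900 and 0 in S-type roots. Its L-type level was thus 5.97% of the nodal level under salt and 1.08% under control, and its ratio was 1.53 (0.72 to 2.54) in L-type and -0.88 in nodal roots. Os03g0836800 (chromosome 3, 35160391 to 35167916) held 7.36 and 7.52 in salt and control L-type roots, 236 and 736 in nodal roots and 0 in both S-type libraries. Os10g0334500 held 0.920 and 0 in salt and control L-type roots, against 251 and 409 in nodal roots and 0 in both S-type libraries, so no lateral library held more than 1 fragment of it. Os07g0499500 held 29.4 and 15.03 in L-type and 349 and 254 in nodal roots, under salt and control. The loci of Os10g0334500 and Os07g0499500 are each shared by 2 gene models, so their levels are uncertain. In contrast, Os03g0103100, Os03g0103200 and XLOC_006037, also in the first 10, had salt L-type levels of 58.0%, 73.8% and 30.9% of nodal roots.

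The members were also read in 4 blocks of 50, from the highest scores down. The score holds the nodal and S-type levels, and the blocks are a description only. The median L-type percentage of the nodal level was 32.6, 40.0, 53.7 and 58.8 under salt and 21.0, 26.0, 36.7 and 41.4 under control. It shares its nodal values with the score, so its order along the ranking says nothing of L-type roots. The position of the L-type level between S-type (0) and nodal roots (1) on the log2 scale had medians of 0.67, 0.62, 0.67 and 0.66 under salt and 0.56, 0.47, 0.53 and 0.51 under control, with no steady order. The median L-type salt ratio was 0.30, 0.24, 0.20 and 0.21, and the median nodal one -0.29, -0.38, -0.28 and -0.17. The median difference of L-type minus nodal roots was 0.70, 0.54, 0.46 and 0.39, largest in the first block. At least 2-fold lower under salt in nodal roots were 6, 3, 2 and 1 members. Without the minimum of 50 scaled fragments, 6, 4, 3 and 3 were at least 2-fold higher in L-type roots. Over all genes with that minimum, the shares were 1.75% lower in nodal and 1.64% higher in L-type roots. All 4 blocks had L-type medians above 0 and nodal medians below 0.

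The 14 members at least 2-fold higher in salt L-type roots differed in the other root types. Os01g0968100 (chromosome 1, 42699901 to 42701251) had the largest L-type ratio of them, 2.2 (1.41 to 3.23). It held 78.2 and 16.3 scaled fragments in salt and control L-type roots, 333 and 344 in nodal roots and 64.8 and 7.71 in S-type roots. Both laterals were thus higher under salt while the nodal pair was level. Os01g0294500 (chromosome 1, 10713949 to 10721707) held 252 and 75.2 in salt and control L-type roots, 751 and 705 in nodal roots and 53.1 and 48.9 in S-type roots, with ratios of 1.73 (1.34 to 2.17), 0.09 and 0.12, so the L-type pair stood apart. Among members that reached the minimum of 50, the lowest L-type ratios were -0.90 for Os07g0290500, -0.77 for Os01g0127600 and Os04g0688200, -0.69 for Os08g0420600 and -0.65 for Os05g0227600. The nodal ratios of these 5 genes, in the same order, were -0.99, -0.86, -0.52, -0.64 and -1.73, so all were lower under salt in nodal roots too. The locus of Os07g0290500 is shared by 8 gene models and its level is uncertain.

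A few members departed from the usual L-type position. Above nodal roots in the control libraries stood 6 members. XLOC_032790 had 146%, MT2C 182%, Os05g0531200 167%, Os01g0588100 177%, Os05g0355400 144% and Os10g0453000 118% of the nodal level. Os01g0588100 (chromosome 1, 22905261 to 22908240) held 3675 and 3312 scaled fragments in salt and control L-type roots, 3271 and 1875 in nodal roots and 69.3 and 111 in S-type roots. At the other end, Os12g0421000 and Os05g0556400 had control L-type values of 76.4 and 80.2, against control S-type values of 117 and 100.3. Under salt both had L-type values above the S-type ones, with 139 against 60.3 and 109 against 65.7.

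Calls in the authors' deposited table, from Cuffdiff on 1 library a group, were few. Between salt and control the authors' deposited table called 0 of the members in L-type, nodal or S-type roots, where it called 0.0244%, 0% and 0.0709% of all tests. The authors' deposited table called 5 members between L-type and S-type roots under salt, where 0.179% of all tests were called, and 3 under control, where 0.136% were, all of them higher in L-type roots. Between L-type and nodal roots the authors' deposited table called 0 members under salt, where 0.029% of tests were called, and 3 under control, where 0.186% were, all lower in L-type roots. Those 3 were SWEET1a, with 4.67 FPKM in control L-type and 196 FPKM in control nodal roots in the authors' deposited table, Os05g0227600, with 22.6 and 285, and Os01g0127200, with 8.68 and 111. Between nodal and S-type roots, the contrast that chose the members, the authors' deposited table called 8 under salt (0.583% of all tests) and 10 under control (1.1%).

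Some members lie next to each other in the genome. Within 20000 bp of another member lay 18 members, in 10 neighbouring pairs. The same count was not made over the eligible genes, so nothing is read from it. Os10g0552600, Os10g0552700 and Os10g0552800 follow each other on chromosome 10, between 21690332 and 21697778. Os10g0552600 held 1237 and 1259 scaled fragments in salt and control L-type roots, 2100 and 5403 in nodal roots and 46.8 and 37.3 in S-type roots. The nodal ratios of the 3 neighbours were -1.36, -1.13 and -0.60 and their L-type ratios -0.03, -0.38 and -0.53. On chromosome 1, Os01g0968100 and Os01g0968400 lie 5272 bp apart, and both had higher values under salt in L-type roots, with ratios of 2.2 and 1.24. LPR4 and its neighbour Os01g0127200, 1273 bp apart, had 0.96 and -0.30, so neighbours did not always share a direction.

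The members' gene models were shorter than those of the eligible genes, with a median of 3620 bp against 4683 bp, and 29.5% of the members but 10.02% of the eligible genes were under 2000 bp. Per length, the median nodal control level was 52.2 FPKM for members and 41.5 FPKM for the eligible genes. Chromosome 3 held 38 members (19%), against 15% of the eligible genes, and chromosome 9 held 4 (2%), against 4.88%. A locus shared with another gene model was found for 31% of the members and 29.0% of the eligible genes. Levels of all such members, Os01g0127200 among them, are uncertain. These shares are descriptions and were not tested.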

How the data were processed

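Messenger RNA of 6 libraries was sequenced, 1 per root type and treatment. Per the submitters' processing notes, the build was IRGSP-1.0 and the tools were Cuffdiff 2.2.1, Cufflinks 2.2.1, TopHat2 2.0.11, Bowtie and Trimmomatic 0.32, with settings not given in the sources used here. The values of the deposited count table are a signal, fragments per gene times 1 factor per library. Between 99.91% and 99.96% of values were whole multiples of what 1 fragment is worth, within 0.02 fragments. That worth was 0.9197 in salt and 1.253 in control L-type roots, 0.8293 and 0.8688 in nodal roots and 0.9003 and 1.286 in S-type roots. The deposited comparison table holds the authors' FPKM values, p-values and q-values from Cuffdiff. Its test statistic, a score the authors deposited, was not used.

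Salt ratios are log2 of salt over control after adding 1 to each deposited value, and a 2-fold difference counted only with at least 50 scaled fragments in the higher library. Intervals are exact conditional binomial at 95% on recovered fragments. They cover counting error only. They also treat fragments as independent molecules, which fragments are not, so they can be too narrow even for that error. With no counts deposited, limma 3.58.1 with a trend was run on log2(value + 1) after TMM scaling, additive in root type and treatment, after filterByExpr by treatment. The fit was also run on simulated counts. Each changed gene there had the same salt effect in every root type, so that run says nothing of effects that differ between root types. The edgeR 4.0.16 and DESeq2 1.42.0 tests on recovered fragments were alternatives. All genes were adjusted together, and p-values measure variation between root types, not replicates.

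Of 93 symbols recalled with their identifiers, 63 were kept: the RefSeq table of another rice assembly, ASM3414082v1, had to place the symbol within 2000 bp of the position expected from neighbouring genes, with 0.4 to 1.6 times the length. The length was not required where several models share the locus. This rule was adjusted after seeing which names passed. The lists gave 61 symbols, of which 33 passed, and 30 passed out of the 32 added after values were seen. Coordinates are those of the files, 1-based on IRGSP-1.0. Named are the 10 highest scores, the 5 genes on either side of the border, the 5 highest and lowest L-type ratios and control L-type positions, and up to 30 members with a symbol plus those in a list. Os10g0453000, Os08g0478000 and the genes named as neighbours or from the authors' table were chosen after their values were seen. The members and lists were chosen with earlier results of these data known. Alternatives changed the scaling, pseudocount, set size, minimums, values read by the rule, filter, test and root types.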

Additional observations from a re-analysis of the deposited data

Results flagged for a closer look

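The members' salt ratios differed between L-type and nodal roots, with a median difference of 0.50 on the log2 scale (177 of 200 above 0), against 0.03 over the eligible genes. With 1 library a group this difference was not tested, and its nodal values were also read by the rule. Counting intervals of Os08g0478000 (chromosome 8, 23575567 to 23576307) lay wholly above 0 in L-type and wholly below 0 in nodal roots, with a difference of 2.31. It held 257 and 109 scaled fragments in salt and control L-type roots, 284 and 603 in nodal roots and 49.5 and 25.7 in S-type roots. Its ratio was 1.23 (0.88 to 1.6) in L-type and -1.08 (-1.27 to -0.89) in nodal roots, each past 2-fold in the opposite direction, and this difference was not tested either.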

How the results depend on the processing

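No paired analysis was possible because, with 1 library a group, the replicate numbers pair nothing; the limma test compares salt and control within root types through its root type term. The median S-type salt ratio, 0.04 and never called, was below 0 over the first 100 members, at a rule minimum of 100 and, at -0.0063, at a call minimum of 200. No other median or share given for the members changed sign. With 1 library a group, nothing separates a salt effect from a difference between libraries, and members with few S-type fragments have no usable S-type ratio. Medians over the first 100 members were 38.6% (salt) and 23.0% (control) for the L-type percentage of nodal, 2.71 and 2.43 for log2 L-type over S-type, -0.084 for the S-type salt ratio and 0.40 for L-type minus S-type. Over 400 genes they were 59.9% and 46.5%, 1.66 and 1.55, and salt ratios of 0.14 in L-type and -0.17 in nodal roots, with 0.35 for L-type minus nodal and 0.0796 for L-type minus S-type, and 3.65% were 2-fold higher in L-type roots. A rule minimum of 100, under which 107 members were shared, gave 41.3% and 24.9%, 2.65 and 2.36, -0.13 for the S-type salt ratio and 0.35 for L-type minus S-type, with 9.09% 2-fold lower in S-type roots. A minimum of 400, with 89 members shared, gave 61.3% and 49.2%, 1.52 and 1.53, an L-type salt ratio of 0.12, 0.38 for L-type minus nodal, 0.0796 for L-type minus S-type and 2.02% 2-fold higher in L-type roots. The share 2-fold higher became 0% in nodal roots under the first 100, either minimum and the rule on FPKM, and 0% in S-type roots under the first 100, either minimum and a call minimum of 200. The share 2-fold lower in S-type roots became 0% under that call minimum, under CPM and over members with a locus of their own. CPM gave an L-type median salt ratio of 0.32. At a log2 ratio of 0.58, 23.4% were higher and 2.72% lower in L-type roots, 27% lower in nodal roots, and 9.78% higher and 15.2% lower in S-type roots. Over the 92 members measured in every root type, added after seeing the data as was the locus setting, the medians were 53.5% and 36.6%, and 1.74 and 1.48. DESeq2 called 2 members, among 174 of 28738 genes fitted, and the other fits called 0 members, with 0 unadjusted without the root type term. The cause of these differences was not tested.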
